A study of Mus musculus with 6 samples.

Results

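The immediate-early genes described here were Fos, Fosb, Jun, Junb, Egr1, Egr2, Nr4a1, Nr4a3, Dusp1 and Ier2, chosen by symbol, 10 of the 19401 genes listed in the retinal RNAseq of 5XFAD mice. All 10 were found in all 6 libraries. The mice were hemizygous for human transgenes that carry familial Alzheimer's disease mutations in the amyloid precursor protein and presenilin 1, on the B6SJL background, and every group carried them. The labels give retina as the tissue and an age of 9 months, and the study's methods add that the mice were male and that RPE was included. The control group is labelled both control and untreated, and the study's methods describe its drinking water as containing the detergent vehicle. The EFV group received efavirenz, an anti-HIV drug, in drinking water from 3 to 9 months of age, and the dose on the labels is 0.08 mg/kg. The study's methods state a somewhat higher daily dose. Each group had 3 libraries, each made from a pool of 5 to 6 mice with 1 retina per mouse, so replicates differ as pools do. The rounded expected counts summed to between 23455167 and 24590278 per library.

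The products of these genes are known for their rapid and short-lived synthesis after a cell is stimulated, since their transcription starts without new protein being made. Kinases and calcium signals act on factors already bound near the start of the gene, mainly CREB at cAMP response elements and SRF with its partners, such as ELK1, at CArG boxes. FOS and FOSB pair with JUN or JUNB to form AP-1, EGR1 and EGR2 are zinc finger factors, and NR4A1 and NR4A3 are orphan nuclear receptors. DUSP1 is a phosphatase that inactivates MAP kinases, and IER2 is a nuclear protein made in the same response. In the retina these genes are known to respond to light, to neuronal activity and to injury.

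Sequences before the transcription start were available for 8 of the 10 genes (RefSeq, GRCm38.p6) and are shown for those that hold the core of the cAMP response element, TGACG, since this was the feature most widely shared among them. It was found on either strand within 250 bases before the start in 7 of the 8, all but Jun, against 17.8% of the 32851 promoters of the same length, and 19.8% of genes held it at any of their starts. In the sequences below, written 5′ to 3′ on the strand of the gene, capitals mark this core, as TGACG or as CGTCA where it lies on the opposite strand. In Dusp1 they mark the full element TGACGTCA, in which the cores of both strands overlap, and in Egr2 also the CArG box. The start is that of the promoter table and need not be the outer end of the gene: the Nr4a1 and Egr2 stretches lie inside the RefSeq span of the gene, and those of Nr4a3 and Fosb do so in part. The Fos stretch, chr12:85473740-85473889 on the + strand, covers the 150 bases before the start, with matches that begin 129 and 66 bases before it.
Fos: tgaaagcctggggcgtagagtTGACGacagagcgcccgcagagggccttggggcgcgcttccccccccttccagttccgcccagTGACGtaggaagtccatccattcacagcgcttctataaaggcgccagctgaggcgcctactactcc
The Fosb stretch, chr7:19310046-19310145 on the - strand, has a single match, 60 bases before the start.
Fosb: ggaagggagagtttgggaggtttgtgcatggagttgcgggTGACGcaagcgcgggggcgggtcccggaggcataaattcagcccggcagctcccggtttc
The Junb stretch, chr8:84978749-84978878 on the - strand, has its match 106 bases before the start.
Junb: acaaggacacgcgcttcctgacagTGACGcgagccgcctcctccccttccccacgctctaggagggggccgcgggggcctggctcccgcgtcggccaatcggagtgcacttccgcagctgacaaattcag
The Nr4a1 stretch, chr15:101266596-101266845 on the + strand, holds 4 matches, at 233, 213, 69 and 40 bases, all of them on the opposite strand.
Nr4a1: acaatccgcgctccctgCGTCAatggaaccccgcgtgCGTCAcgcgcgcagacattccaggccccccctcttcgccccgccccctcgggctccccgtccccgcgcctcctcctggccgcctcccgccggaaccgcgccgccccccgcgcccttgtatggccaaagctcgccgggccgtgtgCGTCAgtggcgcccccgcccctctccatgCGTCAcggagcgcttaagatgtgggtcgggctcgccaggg
The Nr4a3 stretch, chr4:48045055-48045174 on the + strand, also holds 4, at 231, 213, 205 and 147 bases.
Nr4a3: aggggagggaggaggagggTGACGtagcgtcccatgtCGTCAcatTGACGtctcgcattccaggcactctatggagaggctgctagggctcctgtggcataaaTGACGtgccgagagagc
The Dusp1 stretch, chr17:26508573-26508672 on the - strand, holds 1 core at 191 bases and the full element at 143 bases before the start.
Dusp1: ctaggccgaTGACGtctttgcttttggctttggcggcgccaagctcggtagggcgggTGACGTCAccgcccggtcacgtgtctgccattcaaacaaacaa
For Egr2, 1 of the 5 starts in the table is shown, chr10:67537739-67537828 on the + strand, with the CArG box 72 bases before the start, between cores at 111 and 55 bases.
Egr2: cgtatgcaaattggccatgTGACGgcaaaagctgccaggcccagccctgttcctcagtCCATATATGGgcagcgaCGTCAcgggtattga

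Other motifs were less widely shared. The full element TGACGTCA was found in Dusp1 alone (1.55% of all promoters) and the CArG box in Egr2 alone (1.47%). The GC box GGGCGGG was present in 6 of the 8 genes and in 23.4% of promoters. Sites for the factors that the genes themselves encode were searched as well, and 0 of the 8 windows held the AP-1 site TGANTCA (6.75% of promoters), the NR4A site AAAGGTCA (1.34%) or the EGR site GCGTGGGCG (0.536%). Both strands were searched for every motif. A match shows only that these letters are present in this window. The lack of a match is limited in the same way, since sites further from the start or with other letters were not searched.

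**Figure D1:**
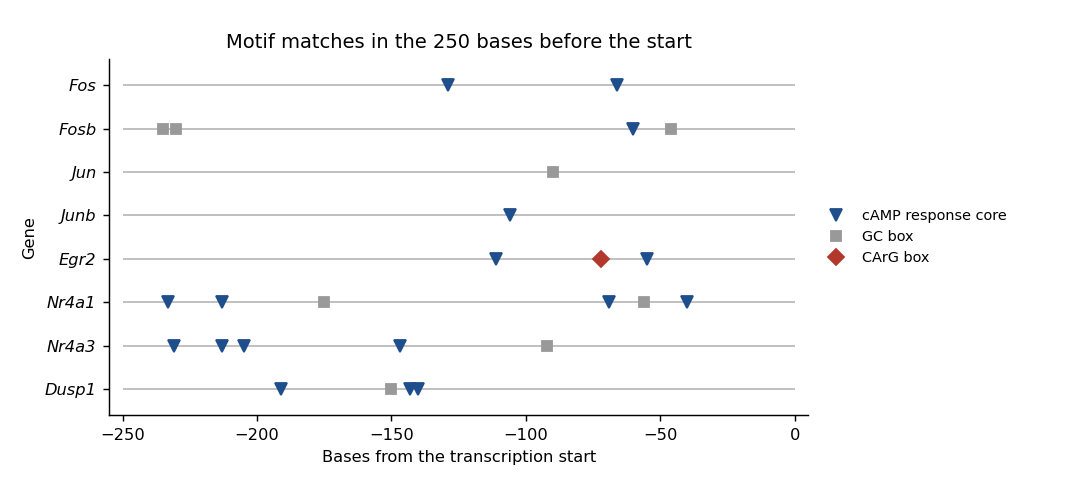
Positions of motif matches on either strand in the 250 bases before the transcription start (x axis, bases from the start) for the 8 genes with a promoter sequence (y axis); triangles mark the cAMP response core, squares the GC box and the diamond the CArG box. Every gene but Jun has at least 1 triangle, Nr4a1 and Nr4a3 have 4 each, and 1 of the 5 starts of Egr2 is drawn, so its GC boxes, which lie before other starts, are not in the plot.

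The genes were short and had few exons. Their spans in RefSeq (GRCm38.p6) had a median of 3568 bases, against 25055 for the 14347 protein-coding genes tested that have a span there, and 9 of the 10 were below that median. Ier2 on chromosome 8 was the shortest, at 1522 bases (chr8:84661331-84662852), and Nr4a3 on chromosome 4 the longest, at 41370 bases (chr4:48045078-48086447). Jun (chr4:95049036-95052222), Junb (chr8:84976909-84978748) and Ier2 have a single exon, 3 of the 10, against 2.47% of the genes tested. Fos (chr12:85473890-85477274) and Dusp1 (chr17:26505591-26508472) have 4 exons each, and Egr1, on chromosome 18, has 3. The 3′ UTR held the pentamer ATTTA, the core of AU-rich elements that are known to speed the decay of mRNA, in 9 of the 10 genes, all but Ier2, against 68.7% of 14179 genes. Its density had a median of 2.87 per kb, against 1.28 per kb over all genes tested. The longer AU-rich nonamer TTATTTATT was found in Fos and Dusp1, 2 of the 10, against 7.83% of genes. An antisense RNA, Junos, has an exon within Jun, and as it is not stated whether counting used the strand, reads from the pair cannot be told apart.

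On the FPKM scale, which corrects for gene length, the genes fell into a group of 7 at moderate levels and 3 at low levels. Mean levels in control were 25 for Egr1, 19.7 for Junb, 19.4 for Nr4a1, 15.2 for Jun, 14.2 for Ier2, 14.2 for Fos and 12.8 for Dusp1, then 2.30 for Fosb, 0.94 for Nr4a3 and 0.127 for Egr2. Neighbours in this order overlapped in their control libraries except at the steps from Dusp1 to Fosb and from Nr4a3 to Egr2. Over controls 1 and 2 alone, the mean of Egr1 was 10.3 FPKM, not the highest of the set. Junb (14.5), Nr4a1 (13.4), Jun (13.3), Ier2 (11.9) and Dusp1 (11.5) were above it. The order, and the first place of Egr1 in it, thus rests in part on control library 3, in which all 10 genes were at their highest. For the same reason the library is described before the comparison, and the fold change of each gene tested is given with and without it.

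Control library 3 had the highest level of the 6 libraries for 10 of the 10 genes, whereas it was the highest for 14.6% of the 15537 genes tested. The genes were named with this known, so these counts describe the set and do not test it. Relative to the median of the other 5 libraries, the FPKM of control 3 was 5.46 times as high for Egr1, 4.71 times for Fosb and 3.60 times for Fos. Nr4a1 followed at 2.44, Nr4a3 at 2.34 and Junb at 2.07. The ratio was smallest for Ier2, Jun and Dusp1, at 1.46, 1.40 and 1.33. A level of at least 1.5 times the median of the others was thus reached by 6 of the 9 genes with enough counts to test, and by 1.8% of all genes tested; the corresponding shares with another library as the high one were 1.03% and 1.85% for controls 1 and 2 and 1.26%, 1.32% and 2.18% for EFV 1, 2 and 3. The second highest library was EFV 1 for 7 of the 10 genes, against 21.8% of the genes tested that peaked in control 3. EFV 2 was the lowest, alone or tied, for 6 of the 10.

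Control library 3 also held transcripts of the lens, the eye tissue in front of the retina. The 7 lens markers (Crybb1, Crybb3, Crygs, Mip, Bfsp1, Bfsp2 and Lim2) were all highest there, and their FPKM summed to 435.7, against 5.04 to 16.7 in the other 5 libraries. No lens marker was at 0 in all libraries. In EFV 1, the library with the second highest levels of most of the genes, the lens sum was 13.3, within the range of the others. The sum of cone markers was 547.9 to 651.1 over the 6 libraries, with 631.6 in control 3, and the sum of RPE markers was 23.6 to 55.8 with 45.8 in control 3. The part of the lens signal in the levels of the immediate-early genes was not tested. In pooled bulk RNA, moreover, more cells of a type and more RNA per cell cannot be told apart.

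**Figure D2:**
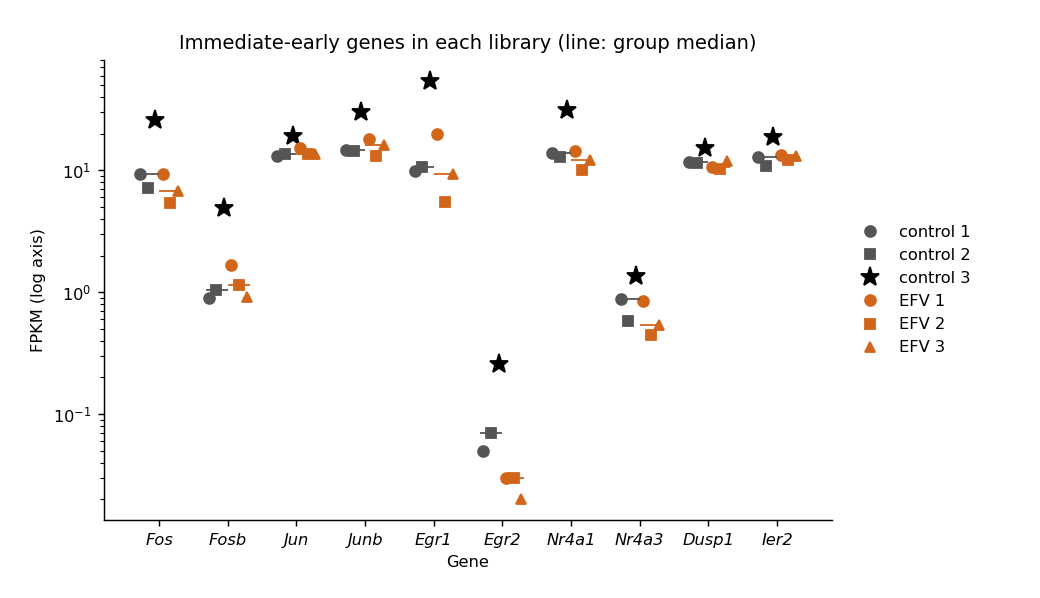
FPKM (y axis, log scale) of the 10 immediate-early genes (x axis) in each library, with control in grey and black and EFV in orange; each symbol is 1 library and each line is the median of a group. The star of control 3 is the highest symbol for all 10 genes, and for Egr1 it stands at 54.4 with EFV 1 next at 20.0.

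The comparison of EFV-treated with control 5XFAD mice addressed which retinal transcripts differed after treatment. With all 6 libraries, the log2 fold change of EFV over control was below 0 for 9 of the 9 genes tested, against 49.5% of all genes tested. Without control 3 it was below 0 for 4 of the 9, against 49.7%. The median over the 9 genes was -0.62 with all libraries and 0.068 without control 3, whereas the median of all genes was 0.00 in both. By edgeR's quasi-likelihood test with Benjamini-Hochberg adjustment, 0 of 15537 genes passed an adjusted p of 0.05 (0.0%). At an unadjusted p of 0.05 the test called 472 genes (3.04%), and DESeq2 called 11 genes at an adjusted p of 0.05. Without control 3, edgeR called 523 genes at an unadjusted p of 0.05 (3.39%). Since the genes were proposed with this contrast known, their fold changes are given with a standard error (SE) and no test.

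**Figure D3:**
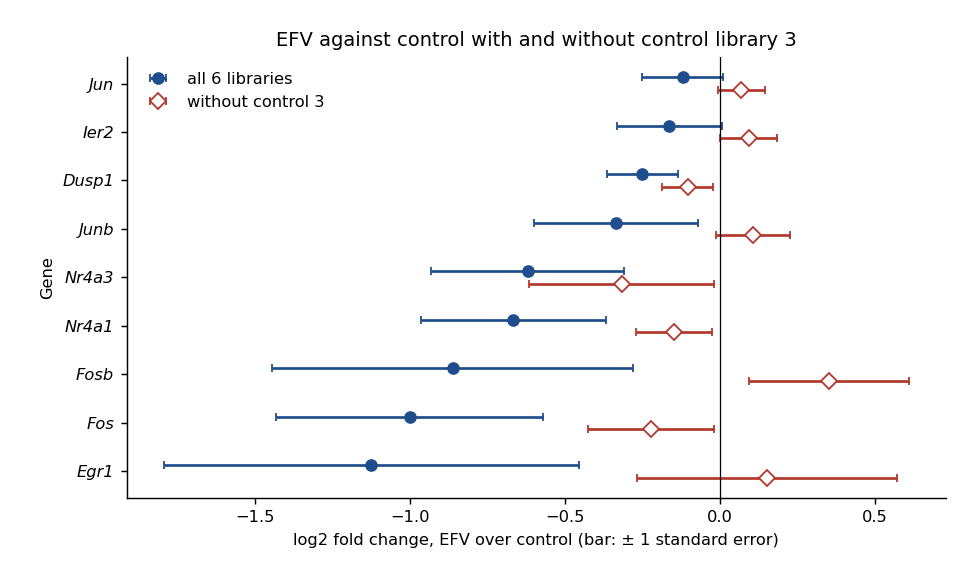
The log2 fold change of EFV over control (x axis, bars ± 1 SE) for the 9 genes tested (y axis), with all 6 libraries (filled circles) and without control 3 (open diamonds). All 9 circles lie below 0, from -1.12 for Egr1 to -0.12 for Jun, and 5 of the 9 diamonds lie above 0.

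Among the Fos family subunits of AP-1, Fos had 9.30, 7.21 and 25.97 FPKM in control libraries 1, 2 and 3 and 9.35, 5.38 and 6.76 FPKM in EFV libraries 1, 2 and 3. Control 3 stood far above the rest, and EFV 1 was level with control 1, so that the groups overlapped. The log2 fold change was -1.0 (SE 0.43) with all libraries and -0.22 (SE 0.20) without control 3. Fosb, whose product pairs with JUN proteins as FOS does, had 0.89, 1.05 and 4.95 FPKM in control and 1.66, 1.14 and 0.91 FPKM in EFV. Apart from control 3, the highest Fosb value was that of EFV 1 and the lowest that of control 1. Its log2 fold change was -0.86 (SE 0.58) with all libraries and, with the opposite sign, 0.35 (SE 0.26) without control 3.

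The Jun family subunits varied less. Jun had 13.08, 13.56 and 18.98 FPKM in control and 15.40, 13.53 and 13.50 FPKM in EFV. Except for control 3 and EFV 1, the libraries lay between 13.08 and 13.56 FPKM. The log2 fold change of Jun was -0.12 (SE 0.13) with all libraries and 0.07 (SE 0.08) without control 3. Junb had 14.59, 14.44 and 30.21 FPKM in control and 18.15, 13.15 and 16.20 FPKM in EFV. Controls 1 and 2 were almost equal and lay inside the EFV range. The log2 fold change of Junb was -0.34 (SE 0.26) and became 0.11 (SE 0.12) without control 3.

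The balance of the 2 families within a library also set control 3 apart. The summed FPKM of Fos and Fosb, divided by that of Jun and Junb, was 0.368, 0.295 and 0.629 in control libraries 1, 2 and 3 and 0.328, 0.244 and 0.258 in EFV libraries 1, 2 and 3. In control 3 the ratio was the highest, and without it controls 1 and 2 still overlapped with EFV 1. The ratio of Egr1 to Jun was also highest in control 3, at 0.761, 0.785 and 2.87 in control and 1.30, 0.408 and 0.687 in EFV. For this ratio EFV 1 lay above controls 1 and 2. These ratios do not depend on the scaling between libraries, so the genes differed from one another in how far they stood up in control 3. The sum over all 10 genes was 201.6 FPKM in control 3 and 71.6 to 103.9 FPKM in the others.

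Of the zinc finger factors, Egr1 had 9.96, 10.65 and 54.40 FPKM in control and 20.04, 5.52 and 9.27 FPKM in EFV. It had the highest level of the set in control 3, and it was also the gene that varied most among the EFV libraries, with EFV 1 at 3.63 times EFV 2. Its log2 fold change was -1.12 (SE 0.67) with all libraries and 0.15 (SE 0.42) without control 3. Egr2 was near the limit of detection, with 3, 4 and 18 counts in control and 2, 2 and 1 counts in EFV, and was not tested. Its EFV libraries were all below the control libraries, as for 2.68% of the genes tested, a set that Egr2 did not enter. The nearest counts were 3 in control 1 and 2 in EFV 1 and 2. Of the 25 control counts, 18 came from control 3. With every count summed and scaled to the library totals, the ratio of EFV to control was 0.198, and 0.470 without control 3. These ratios rest on few counts and have no term for the spread between pools. On the FPKM scale the levels of Egr2 were 0.05, 0.07 and 0.26 in control and 0.03, 0.03 and 0.02 in EFV.

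The orphan nuclear receptor gene Nr4a1 had 13.97, 12.86 and 31.35 FPKM in control and 14.52, 10.11 and 12.10 FPKM in EFV. Control 3 was 2.16 times the next library, and EFV 1 was above controls 1 and 2. The log2 fold change was -0.67 (SE 0.30) with all libraries and -0.15 (SE 0.12) without control 3. Nr4a3 had 0.88, 0.58 and 1.36 FPKM in control and 0.84, 0.45 and 0.54 FPKM in EFV. This gene kept the largest part of its difference, -0.62 (SE 0.31) with all libraries and -0.32 (SE 0.30) without control 3, although control 2 lay within the EFV range. It also had the lowest counts of the genes tested, down to 60 in EFV 2, where counting error alone is 12.9%, whereas for Egr1 in control 3 (3998 counts) it is 1.58%. The third NR4A gene, Nr4a2, was not raised in control 3, with 2.5 FPKM there, 2.73 and 2.43 FPKM in controls 1 and 2 and 2.70, 2.16 and 2.5 FPKM in EFV.

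Dusp1, the phosphatase that shuts off the kinases upstream of these genes, had 11.62, 11.45 and 15.25 FPKM in control and 10.57, 10.20 and 11.84 FPKM in EFV. Only EFV 3 lay above a control library, and the log2 fold change was -0.25 (SE 0.11) with all libraries and -0.11 (SE 0.08) without control 3. Ier2 had 12.93, 10.89 and 18.90 FPKM in control and 13.34, 12.07 and 13.20 FPKM in EFV. The EFV libraries of Ier2 lay close together, all above control 2. Its log2 fold change was -0.16 (SE 0.17) with all libraries and 0.09 (SE 0.09) without control 3.

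The spread within the EFV group, which does not contain control 3, also differed between the genes. The 6 genes at 1.5 times or more in control 3 had an SD of log2 CPM of 0.23 to 0.93 among the EFV libraries, and their highest EFV library was 1.38 to 3.63 times the lowest. Jun, Dusp1 and Ier2, the 3 below that limit, had an SD of 0.07 to 0.11, and their EFV libraries differed by 1.11 to 1.16 times. Among all genes tested, the median SD in EFV was 0.09. By percentile among all genes tested, the SD in EFV ran from 34.4 for Ier2 to 98.6 for Egr1, and the SD in control ran from 82.2 for Dusp1 to 99.3 for Egr1. Controls 1 and 2 alone differed little for Dusp1 and Junb, with an SD of 0.0033 and 0.0083, and more for Fos, with 0.24, and for Nr4a3, with 0.41.

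Other genes of the response were taken from 5 lists, in which 98 of 104 genes had enough counts. By edgeR's quasi-likelihood test, 1 of the 98 was lower and 1 higher in EFV at an unadjusted p of 0.05, close to the background of 1.55% and 1.49%, and 0 passed the Benjamini-Hochberg adjustment. The lower one was Elk1, which encodes a partner of SRF at CArG boxes, with 5.92, 6.51 and 5.92 FPKM in control and 5.51, 5.45 and 5.27 FPKM in EFV. Its EFV libraries were all below the control libraries, as for 2.68% of the genes tested. The log2 fold change of Elk1 was -0.19 (SE 0.07, adjusted p = 0.999 by edgeR with Benjamini-Hochberg adjustment). The higher one was Plk3, a stress-responsive kinase gene, with 1.19, 0.90 and 1.03 FPKM in control and 1.51, 1.25 and 1.5 FPKM in EFV. Its EFV libraries were all above the control libraries, as for 4.99% of the genes tested, and its log2 fold change was 0.44 (SE 0.18, adjusted p = 0.999 by the same edgeR test and adjustment). The direction of the 98 was lower for 63 and higher for 35, whereas 49.5% of all genes tested were lower. The median log2 fold change of the 98 was -0.03 and became 0.02 without control 3. Without control 3 the same edgeR test called 3 of the 98 at an unadjusted p of 0.05, against 3.39% of all genes, and 0 with the Benjamini-Hochberg adjustment. Elk1 was still among them, at -0.22 (SE 0.08), whereas Plk3, at 0.43 (SE 0.21), was not. The others, named after their values were seen, were Gadd45b, at 0.47 (SE 0.14), and Npas4, at 0.36 (SE 0.16), both higher in EFV.

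In control 3, 7 of the 98 related genes were the highest and at least 1.5 times the median of the others. Among all genes tested the share was 1.8%. For 36 of the 98, control 3 was the highest library, against 14.6% of all genes tested. Named after their values were seen, the 7 were Egr4 at 7.36 times, Arc at 3.05, Cyr61 at 2.51, Egr3 at 2.37, Npas4 at 2.00, Sik1 at 1.55 and Csrnp1 at 1.54. Egr4 had 0.74, 0.42 and 3.90 FPKM in control and 1.26, 0.32 and 0.53 FPKM in EFV. Arc, a gene of the synapse that follows neuronal activity, had 0.37, 0.44 and 1.34 FPKM in control and 0.68, 0.42 and 0.55 FPKM in EFV. Npas4, which encodes a factor induced by calcium entry into neurons, had 2.31, 1.98 and 4.61 FPKM in control and 3.11, 2.27 and 2.97 FPKM in EFV. EFV 1 was the second highest library for 5 of the 7, against 22.6% of the 279 genes tested that met the same limit.

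By list, the 7 fell among the EGR and NR4A relatives and the other early response genes. The share of all genes tested that met the same limit was 1.8%. Of the AP-1 and Maf partners, 0 of the 10 tested reached 1.5 times, with a range of 0.89 to 1.36. The most abundant, Jund, had 43.32, 40.05 and 50.85 FPKM in control and 45.96, 43.78 and 43.73 FPKM in EFV, more than Jun and Junb together in each of the 6 libraries. Jdp2 and Maf, the next by level, had log2 fold changes of -0.06 (SE 0.10) and -0.01 (SE 0.08), or -0.12 and 0.08 without control 3. Of the EGR and NR4A relatives and corepressors, 2 of the 5 reached 1.5 times, and the corepressor genes Nab1 and Nab2 stood at 4.82 and 7.68 FPKM in control 3 against 5.28 to 6.13 and 5.87 to 6.27 FPKM elsewhere. Among the other early response genes, 5 of the 40 reached it. The 3 most abundant, Sgk1, Arl4d and Zfp36l2, had log2 fold changes of 0.02 (SE 0.05), -0.09 (SE 0.06) and -0.03 (SE 0.07), or 0.02, -0.03 and 0.04 without control 3. Of the other MAPK phosphatases, 0 of the 8 tested reached 1.5 times. Dusp8, Dusp7 and Dusp14, the highest of them, had log2 fold changes of 0.02 (SE 0.07), 0.00 (SE 0.07) and -0.02 (SE 0.09), or 0.06, 0.07 and -0.09 without control 3. Of the 35 upstream kinases and factors, 0 reached 1.5 times, with a range of 0.82 to 1.18, and the most abundant of them, Mef2d, Mapk3 and Map2k7, had log2 fold changes of 0.01 (SE 0.07), 0.01 (SE 0.04) and -0.05 (SE 0.05), or 0.03, 0.02 and -0.05 without control 3.

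**Figure D4:**
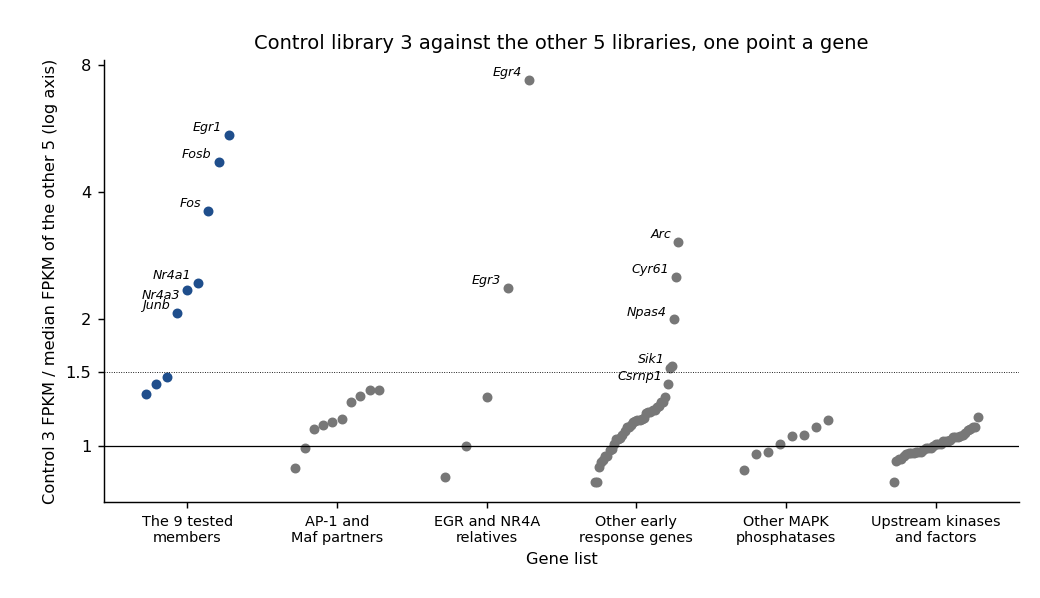
FPKM of control 3 divided by the median FPKM of the other 5 libraries (y axis, log scale) for the 9 immediate-early genes tested and for 5 lists of related genes (x axis), 1 point per gene; the solid line is 1 and the dotted line 1.5, and genes at or above 1.5 are named. In the lists of AP-1 and Maf partners, MAPK phosphatases and upstream genes, no point reaches the dotted line, whereas Egr4 is at 7.36.

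The genes whose levels followed the set most closely were sought among 989 genes that varied at least as much as the least variable member and had a mean FPKM of at least 1. Both limits were taken over all 6 libraries, so a high level in control 3 could by itself admit a gene. The measure was Pearson's r over the 6 libraries between a gene's log2 CPM and the mean of the centred log2 CPM of the 9 genes, which was 1.04 in control 3, 0.11 in EFV 1 and -0.14 to -0.47 in the others. The 10 closest were Acta2 (r = 0.996), Egr4 (0.977), Mip (0.970), Sertad1 (0.965), Sik1 (0.959), Itga6 (0.958), R3hdml (0.958), Bfsp2 (0.957), Mad2l1bp (0.957) and Crybb1 (0.95). Each of the 10 was highest in control 3, on which these values rest. Egr4, Mip and Bfsp2 met the FPKM limit only through control 3, with means of 0.654, 0.662 and 0.996 in the other 5 libraries. The list therefore describes the peak in control 3 and does not test it. Of the 10, Mip, Bfsp2 and Crybb1 are lens markers. Egr4 and Sik1 are from the lists of related genes, which made up 14 of the 989 candidates. Acta2, which encodes smooth muscle actin, had 1.62, 1.59 and 4.41 FPKM in control and 2.04, 1.36 and 1.60 FPKM in EFV. It was second highest in EFV 1 and lowest in EFV 2, an order it had in common with Fos, Junb, Egr1 and Nr4a1 but not with the other genes. The lens marker Crybb1 had 1.63, 2.44 and 58.72 FPKM in control and 2.31, 1.24 and 2.65 FPKM in EFV, so that control 3 stood at 25.4 times the median of the others.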

How the data were processed

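After read filtering and alignment to mm10 with Bowtie2 2.2.5, the authors estimated the expected counts of each gene with RSEM 1.2.12 and deposited these with FPKM values, which divide by gene length and library total; HISAT2 2.0.4 is also named in the submitters' processing notes. Random primers are given in the study's methods and poly-A selection in the labels. Strandedness is not given in the sources used here. The expected counts were rounded, and genes with at least 10 counts in 3 libraries entered edgeR 4.0.16 under R 4.3.3 (quasi-likelihood, two-sided) with TMM scaling (factors 0.984 to 1.01), group as the only term and Benjamini-Hochberg adjustment over 15537 genes. The study's methods use a Poisson threshold, which has no term for the spread between pools and was run as an alternative, with DESeq2 1.42.0, limma 3.58.1 on log2 FPKM with pseudocounts of 0.1 and 1, other scalings and filters, a replicate block and the omission of each library. No library repeated another of its group (chi-square per degree of freedom 6.12 to 13.7 within groups, highest for pairs with control 3).

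The genes and the lists were chosen with earlier results of these data known. Named genes were the 10 genes, the 3 most abundant and up to 3 strongest called genes of each related list, the 10 genes of closest pattern, and marker lists; further genes are named as chosen after their values were seen. Other marker sums, in FPKM over the 6 libraries, were 274.0 to 296.4 for bipolar, 193.5 to 210.9 for amacrine, 309.2 to 335.9 for ganglion, 1054 to 1114 for Müller, 6.05 to 7.32 for microglia, 37.7 to 45.2 for endothelium, 1.46 to 2.60 for fibroblast, 113.6 to 289.0 for blood and 1.93 to 4.39 for ocular surface epithelium markers. Another marker list is not reported here. Promoters and gene spans came from RefSeq (GRCm38.p6), and exons and UTRs from GENCODE of the same build. The FPKM of Fosb and Nr4a1 include a transcript that the files name as new.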

Additional observations from a re-analysis of the deposited data

How the results depend on the processing

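With all 6 libraries, the log2 fold changes of the 9 genes stayed below 0 in 81 of 81 values over other scalings, count filters, DESeq2, limma, a Poisson model and a replicate block. These 81 values are refits of the same libraries, control 3 included, so they are not separate evidence of direction. With libraries left out, 55 of 63 stayed below 0, and of the 9 without control 3, 4 did. For Fos, Fosb and Egr1 the omission of control 3 moved the value by more than the SD of log2 CPM pooled over both groups. Leaving out each library in turn gave a median log2 fold change of -0.85 to 0.068 over the 9 genes, with 0.068 without control 3, 4 to 9 genes lower in EFV, 0 to 1 genes called at an adjusted p of 0.05 (1 without EFV 1), 389 to 576 at an unadjusted p of 0.05 and 2 to 5 related genes called (5 without control 2, 4 without control 1). Without both control 3 and EFV 1, a setting chosen after seeing the data, the median was -0.084, 6 genes were lower and 3 genes were called at an adjusted p of 0.05. DESeq2 called 11 genes at an adjusted and 270 at an unadjusted p of 0.05, with 1 related gene. The Poisson model called 2043 and 3901, with 25 related genes; this model has no term for the spread between pools. The cause of the DESeq2 differences was not tested. With the replicate number as a block, 0 genes passed at an adjusted and 520 at an unadjusted p of 0.05, with 2 related genes, and the median was -0.49. Same-numbered libraries correlated at 0.125, 0.0832 and 0.0992, and each correlated best with its own number. Pairs with different numbers correlated at -0.101 to -0.0063. Whether same-numbered libraries shared a batch was not tested.

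Depth limits Egr2 and, less, Nr4a3. With 3 pools per group, the SE of the fold change of Egr1 was 0.67, larger than that of any other of the 9 genes.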
